A study of Mus musculus with 384 samples.

Results

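The genes described here are 4 Krüppel-like factors, *Klf4*, *Klf6*, *Klf7* and *Klf9*, and the 3 SoxC genes, *Sox4*, *Sox11* and *Sox12*. They were taken as the rows whose gene symbol equals one of these names, which gave 7 of the 55331 gene rows in the files, 1 row for each gene. The cells were intrinsically photosensitive retinal ganglion cells (ipRGCs), the ganglion cells that make the light-sensitive pigment melanopsin, sorted singly from mouse retina on postnatal day 1 (P1) or 5 (P5), before and during the time when their axons reach the suprachiasmatic nucleus. All mice at both ages carried Opn4Cre/+; Brn3bzDta/+; Rosa26fsTRAP/+, so that cells in which the *Opn4* (melanopsin) locus has driven Cre are labelled by a ribosomal protein carrying GFP, and cells were sorted for GFP and for CD90.2. There was no control genotype, and the Brn3bzDta allele, which is known for making diphtheria toxin from the *Pou4f2* (Brn3b) locus once Cre has acted, was present in every animal. Each of the 384 libraries is 1 cell, an equal number came from each age, and Smart-seq2 reads whole transcripts without molecular identifiers.

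KLF proteins bind GC-rich and CACCC-containing DNA through zinc fingers at their C-terminal end, and in retinal ganglion cells they are known for opposite effects on axon growth, with *Klf4* and *Klf9* restraining it and *Klf6* and *Klf7* promoting it. The SoxC proteins share an HMG box that binds and bends DNA. They are needed for ganglion cells to form, they act on genes of young neurons such as *Tubb3* and *Dcx*, and *Sox11* is also known as a factor that can promote or, in some ganglion cell types, harm regrowth after injury. *Klf9* is in addition a known target of thyroid hormone and glucocorticoids.

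Cells with at least 1000 detected genes were kept, which left 372 cells, 190 of them from P1, and removed 2 P1 cells and 10 P5 cells. The kept cells held a median of 930228 and 858452 fragments on genes, and a median of 5081 genes was detected per cell at P1 and 6600 at P5. A gene counted as detected from 1 fragment. The labels tie no cell to an animal, and each age therefore stands as 1 sample. No test between ages or between classes of cells was possible, and the intervals given are exact (Clopper-Pearson) 95% binomial intervals for shares and exact 95% Poisson intervals for sums, which cover counting error only. Without molecular identifiers, the Poisson intervals take every fragment as a separate count, and they leave out the spread over cells. The ages also differed in sex transcripts, with *Xist* and no Y-linked fragment in 150 P1 cells and Y-linked fragments without *Xist* in 160 P5 cells beside 26 P1 cells, so age and animal cannot be told apart. Fragments of haemoglobin genes were found in 67.4% of P1 cells and 3.85% of P5 cells. Ganglion cell markers had a median detection share over 8 genes of 84.5% at P1 and 87.9% at P5, and the 5 ipRGC markers 76.8% and 75.8%, while the defining markers of bipolar cells were in no P1 cell and in at most 2.198% of P5 cells. Single markers of other lists were more frequent, with *Pax6* of the amacrine list in 77.4% and 85.7% of cells, *Gad2* of the same list in 11.1% and 20.9%, *Glul* of the Müller glia and astrocyte list in 33.7% and 59.3%, and *Sfrp2* of the progenitor list in 33.7% and 43.96%.

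The genes lie on 6 chromosomes of GRCm38 in the GENCODE M21 annotation, and each is annotated as protein coding. *Klf7* (ENSMUSG00000025959.13) spans chr1:64029447-64122282 on the minus strand, *Sox12* (ENSMUSG00000051817.8) chr2:152393611-152398063 on the minus strand and *Klf4* (ENSMUSG00000003032.8) chr4:55527143-55532466 on the minus strand. *Sox11* (ENSMUSG00000063632.6) spans chr12:27334264-27342574 on the minus strand and *Klf9* (ENSMUSG00000033863.2) chr19:23141226-23168134 on the plus strand. *Klf6* (ENSMUSG00000000078.7, chr13:5861482-5870394, plus strand) and *Sox4* (ENSMUSG00000076431.4, chr13:28948919-28953713, minus strand) share a chromosome. Exons of *Gm26735* overlap those of *Sox4* on the opposite strand, and exons of *Gm13748* and *Gm26649* overlap those of *Klf7*. Smart-seq2 libraries keep no strand, so reads from these pairs cannot be told apart. *Gm26649* and *Gm26735* have no row of their own among the gene rows, and *Gm13748* was at 0 CPM at both ages. Apart from those overlapping genes, no other gene in the annotation matched a transcript of the 7 genes over 100 bases at 95% identity or more.

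The sequences just before the start sites are shown for the 3 genes whose levels differed most clearly between classes of cells, *Klf6*, *Sox4* and *Sox11*. They are the 250 bases before each RefSeq start in GRCm38.p6, 5′ to 3′ in the direction of the gene, at chr13:5861239-5861488 (plus strand) for *Klf6*, chr13:28953700-28953949 (minus strand) for *Sox4* and chr12:27342719-27342968 (minus strand) for *Sox11*. Capitals mark GC boxes (GGGCGG or its reverse complement CCGCCC) and CCAAT boxes (CCAAT or ATTGG).
Klf6: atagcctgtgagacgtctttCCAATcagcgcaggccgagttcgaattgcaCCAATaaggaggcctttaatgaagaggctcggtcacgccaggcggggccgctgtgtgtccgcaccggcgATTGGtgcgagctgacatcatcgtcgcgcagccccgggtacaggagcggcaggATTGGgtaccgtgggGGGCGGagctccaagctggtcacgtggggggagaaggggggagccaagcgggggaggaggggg
Sox4: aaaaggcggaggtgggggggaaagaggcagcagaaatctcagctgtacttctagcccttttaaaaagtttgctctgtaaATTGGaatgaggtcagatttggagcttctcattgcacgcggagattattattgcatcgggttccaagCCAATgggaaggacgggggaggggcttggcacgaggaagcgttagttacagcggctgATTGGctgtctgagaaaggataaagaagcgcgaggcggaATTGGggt
Sox11: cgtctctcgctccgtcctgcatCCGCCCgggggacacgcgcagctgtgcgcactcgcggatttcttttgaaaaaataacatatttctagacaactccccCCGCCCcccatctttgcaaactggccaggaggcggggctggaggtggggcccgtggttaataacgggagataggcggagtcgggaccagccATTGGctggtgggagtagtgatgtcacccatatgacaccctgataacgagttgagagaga
*Klf6* and *Sox4* each held 4 CCAAT boxes in this window, which 0.840% of the 32851 RefSeq promoter windows of this length did, and *Sox11* held 1. At least 1 CCAAT box was found in 33.8% of all windows. *Klf6* held 1 GC box and *Sox11* 2, while *Sox4* held none, and 32.7% of all windows held at least 1. Among the other genes, *Klf4* had 4 GC boxes and *Sox12* 3, and *Klf9* had 3 CCAAT boxes, of which 2 overlapped. CACCC boxes (CACCC or GGGTG), letters that KLF proteins are known to bind, were found 3 times before *Klf7*, 2 times before *Sox11* and once before *Klf9*, and in 52% of all windows. The T-box letters AGGTGT or ACACCT were found before none of the 7 genes and in 11.8% of all windows, and the SOX letters AACAAT or ATTGTT before *Klf9* only, beside 9.42% of all windows. The share of G and C ran from 50.8% for *Sox4* to 74.4% for *Sox12*, against a median of 52.4% over all windows. These matches describe letters in the windows, not binding.

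Detection split the 7 genes into those present in nearly every cell, those present in a part of the cells, and those that were rare. *Klf7* had a fragment in 95.8% of the cells at P1 (interval 91.9% to 98.2%) and, with 180 cells, in 98.9% at P5 (96.1% to 99.9%). *Sox4* was detected in 93.2% (88.6% to 96.3%) and 93.4% (88.8% to 96.5%), and *Sox11* in 92.6% (87.9% to 95.9%) and 90.1% (84.8% to 94.03%). These 3 genes, a growth-promoting KLF and 2 SoxC genes, were thus in at least 9 of 10 cells at both ages. *Klf6*, the other growth-promoting KLF, reached 64.7% of the P1 cells (57.5% to 71.5%) and 76.9% of the P5 cells (70.1% to 82.8%). *Sox12* fragments were present in 53.7% of the P1 cells (46.3% to 60.9%) and 62.1% of the P5 cells (54.6% to 69.2%). For each of these 5 genes the intervals of the 2 ages overlapped.

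**Figure D1:**
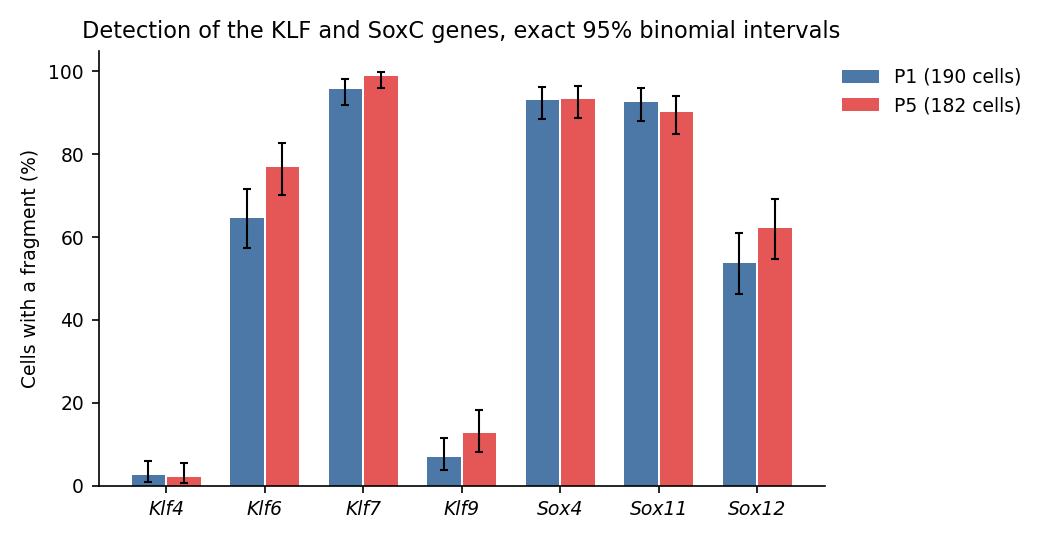
Share of cells with at least 1 fragment of each gene (vertical axis, percent) at P1 and P5, with exact 95% binomial intervals as error bars. *Klf7*, *Sox4* and *Sox11* stand above 90% at both ages, *Klf4* and *Klf9* below 13%, and the intervals of the ages overlap for every gene.

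The 2 KLF genes that restrain axon growth were the rare ones. *Klf4* had a fragment in 5 P1 cells (2.63%, 0.860% to 6.03%), at 1.41, 3.55, 17.7, 26.6 and 55.1 CPM (fragments of the gene per 1000000 fragments on genes), and in 4 P5 cells (2.198%, 0.602% to 5.53%), at 16.8, 17.2, 34.4 and 112.7 CPM. Of these 9 cells, 7 also had an *Opn4* fragment, which 70% of all kept P1 cells and 67.6% of all kept P5 cells had. *Klf9* was detected in 13 P1 cells (6.84%, 3.69% to 11.4%) and 23 P5 cells (12.6%, 8.18% to 18.4%). The cells positive for *Klf9* held between 9 and 262 fragments at P1, with a median of 85. At P5 they held between 2 and 239, with a median of 31. With detection from 5 fragments the shares were 6.84% and 10.99%. Without molecular identifiers, fragments do not count transcripts. No cell had both *Klf4* and *Klf9* at either age, but with so few positive cells this says nothing about a link between them. For comparison, 43 markers of other retinal, glial, immune and vascular cells had a median detection share of 0.526% at P1 and 1.10% at P5. Of these markers, 8 exceeded *Klf4* at P1 and 12 at P5, and 6 and 5 exceeded *Klf9*. *Pax6*, which ganglion cells also express, was the highest of them at 77.4% and 85.7%. The *Klf4* share was above the upper quartile of these markers at P1 (1.58%) and below it at P5 (3.02%). The *Klf9* share was above it at both ages. The part of RNA from cells outside the sort in these shares was not tested.

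Detection of genes in general was more frequent at P5, and the shares have to be read against that. Over the 11905 genes with at least 5 CPM in the sum of at least 1 age, the median detection share was 31.6% at P1 and 44.5% at P5, and 92.99% of genes had a higher share at P5. The interval at P5 lay above that at P1 for 35.8% of these genes and below it for 0.151%. None of the 7 genes had intervals apart in either direction, and *Sox11* was the only one of the 6 above the CPM limit with a lower share at P5. *Klf7*, *Sox4* and *Sox11* were already in 92.6% or more of P1 cells, which left little or no room for a P5 interval above. For them the comparison with all genes is therefore not informative. With each cell thinned to 250000 fragments, which all kept cells reached, *Klf6* was found in 63.7% of P1 cells and 74.2% of P5 cells, and *Klf9* in 6.84% and 12.1%. At 50000 fragments *Klf7* was still in 91.6% and 97.8% of cells, *Sox11* in 89.5% and 89.01%, *Klf6* in 60.5% and 70.9% and *Sox12* in 43.2% and 45.6%. The P1 share of *Klf6* moved with the haemoglobin fragments, since it was 77.4% in the 62 P1 cells without any, close to the P5 share of 76.9%. The part of blood RNA in this was not tested.

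Levels between genes were compared per length, as the deposited FPKM (fragments per kilobase of transcript and 1000000 fragments), and within an age. At P1 the mean level was 134.5 ± 159.7 FPKM (SD over 190 cells) for *Sox11*, 120.3 ± 493.5 for *Klf6*, 95.8 ± 100.98 for *Klf7* and 63.2 ± 81.5 for *Sox4*. *Sox12* followed at 10.3 ± 17.2 FPKM, *Klf9* at 5.34 ± 30.9 and *Klf4* at 0.164 ± 1.34. At P5 the means were 85.7 ± 127.3 FPKM for *Sox11*, 52.04 ± 46.99 for *Klf7*, 42.8 ± 51.9 for *Klf6* and 30.99 ± 28.2 for *Sox4*. At P1 the differences among these leading 4 genes were smaller than the SD over cells of each. At P5 the gap between *Sox11* and *Sox4* exceeded the SDs of *Sox4*, *Klf7* and *Klf6*, but was well below the SD of *Sox11* itself (127.3 FPKM). *Sox12*, the SoxC gene with the lowest level, came next at both ages. The high *Klf6* mean at P1 came from 1 cell at 6621 FPKM, which held 28.96% of the summed *Klf6* FPKM, and the mean was 85.9 FPKM without it. Medians over cells gave the order *Sox11* (75.4 FPKM), *Klf7* (66.6), *Sox4* (37.9) and *Klf6* (25.7) at P1, and *Sox11* (45.1), *Klf7* (43.6), *Klf6* (27.1) and *Sox4* (21.7) at P5. *Klf4* and *Klf9* had a median of 0 at both ages.

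**Figure D2:**
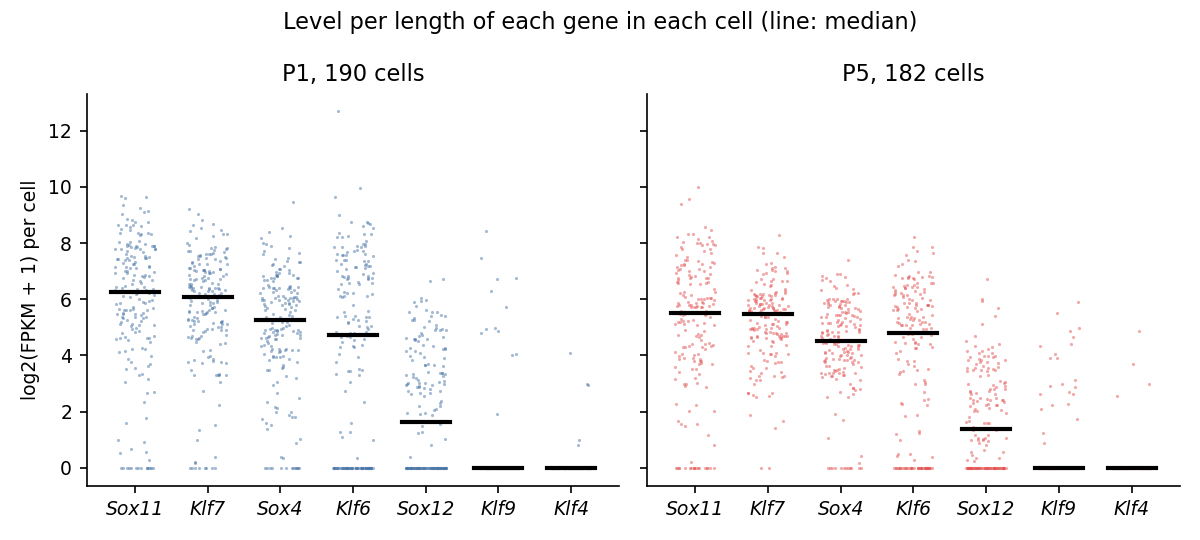
Level of each gene in each cell as log2(FPKM + 1) (vertical axis) at P1 and P5, 1 point per cell, with the median as a line. *Sox11* and *Klf7* lead at both ages, *Klf6* and *Sox12* have a group of cells at 0 beside cells with clear expression, and most cells are at 0 for *Klf9* and *Klf4*.

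Within single cells the leading genes were close to each other. *Klf7* had a higher FPKM than *Sox11* in 42.6% of cells at P1 (35.5% to 49.995%) and 46.7% at P5 (39.3% to 54.2%). The reverse held in 56.8% and 52.2%, so each gene led in a large part of the cells at both ages. *Klf7* was above *Sox4* in 66.8% (59.7% to 73.5%) and 71.98% (64.9% to 78.4%), and above *Klf6* in 59.5% and 59.9%. Of the summed SoxC FPKM, *Sox11* made up 64.7% at P1 and 69.9% at P5, *Sox4* 30.4% and 25.3%, and *Sox12* 4.95% and 4.81%. All 3 SoxC genes were detected together in 46.8% of P1 cells and 53.3% of P5 cells, where *Sox12* by itself reached 53.7% and 62.1%. Only 1 cell, from P5, had none of the 3. Both growth-promoting KLF genes were found together in 62.1% and 75.8% of cells, little below the shares of cells with *Klf6* (64.7% and 76.9%). The summed FPKM of *Klf6* and *Klf7* exceeded that of *Klf4* and *Klf9* in 97.9% of P1 cells and 99.5% of P5 cells, and the reverse held in 1 cell at each age. A median of 4 of the 7 genes was detected per cell at both ages, and no cell had all 7.

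Spread over cells differed between the genes as well. The 10 P1 cells highest in *Klf7* held 17.1% of its fragments, and those highest in *Sox11* 20.9%, in *Sox4* 25.2%, in *Klf6* 26.3% and in *Sox12* 30.9%. For *Klf9* the 10 highest cells held 94.2% of the fragments at P1 and 82.95% at P5. *Klf7* thus had the most even level, with a coefficient of variation of CPM over cells of 0.751 at P1 and 0.636 at P5, against 1.02 and 1.13 for *Sox11* and 1.47 and 1.14 for *Klf6*.

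Across the ages, sums of fragments were compared as CPM. The median gene had a lower FPKM at P5 (log2 ratio of −0.56), while the median log2 CPM ratio was −0.0038. No member passed 2-fold among the 6 above 5 CPM, beside 4.38% of the 11905 genes that were higher by 2-fold or more at P5 and 4.51% that were lower. The median log2 ratio of the 6 was −0.36, and 5 of them were lower at P5, as were 50.3% of all genes. *Klf6* summed to 214.6 CPM at P1 (212.5 to 216.8) and 148.5 CPM at P5 (146.6 to 150.4), a log2 ratio of −0.53. *Sox4* went from 249.95 CPM (247.6 to 252.3) to 174.9 CPM (172.8 to 176.96), a log2 ratio of −0.52. The cells of each age are numbered, and 4 runs of 48 numbers were summed apart, although the labels do not say what a run is and nothing pairs the runs of the ages. The runs of *Sox4* were at 269.7, 261.2, 209.97 and 258.6 CPM at P1 and 146.7, 168.2, 192.9 and 186.99 CPM at P5, so each P1 run was above each P5 run. The runs of *Klf6* were at 209.2, 207.7, 195.5 and 242.4 CPM at P1 and 152.99, 121.1, 115.3 and 199.8 CPM at P5, with overlap of the lowest P1 and the highest P5 run. *Sox12* had a log2 ratio of −0.43, from 40.2 to 29.8 CPM, with runs at 42.3, 32.98, 36.9 and 49.1 CPM at P1 and 16.1, 26.2, 28.98 and 43.9 CPM at P5, so that the highest P5 run was above 3 of the 4 P1 runs. Matched by run number, *Klf6*, *Sox4* and *Sox12* were each lower at P5 in 4 of 4. For *Klf6* and *Sox12* this depends on the matching, since their runs overlapped, and it is not a replication.

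The remaining genes differed less between the ages than between runs of one age. This was also so for *Klf6* and *Sox12*, by the span of their P5 runs. *Klf7* summed to 369.2 CPM at P1 and 303.6 CPM at P5 (log2 ratio −0.28), and its 4 runs at P1 were at 226.8, 366.6, 427.4 and 425.7 CPM, beside 280.9, 315.5, 274.4 and 332.9 CPM at P5, so the runs of the ages overlapped. *Sox11* summed to 883 CPM at P1 (878.6 to 887.4) and 760.2 CPM at P5 (755.9 to 764.5), a log2 ratio of −0.22. Its runs were at 790.7, 1042, 798.2 and 859.5 CPM at P1 and 554.9, 835.7, 836.8 and 772.7 CPM at P5, again with overlap. In the cells with Y-linked fragments only, 26 at P1 and 160 at P5, the log2 ratio of *Sox11* was 0.34, the opposite direction, with 637.3 CPM at P1 beside 954.1 CPM in the P1 cells with *Xist* only. *Klf9* had a log2 ratio of 0.25 (6.57 to 7.81 CPM), with 2 runs higher and 2 lower at P5 when matched by run number. *Klf4* was below the CPM limit at both ages, at 0.647 CPM (0.533 to 0.778) and 1.17 CPM (1.01 to 1.35).

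**Figure D3:**
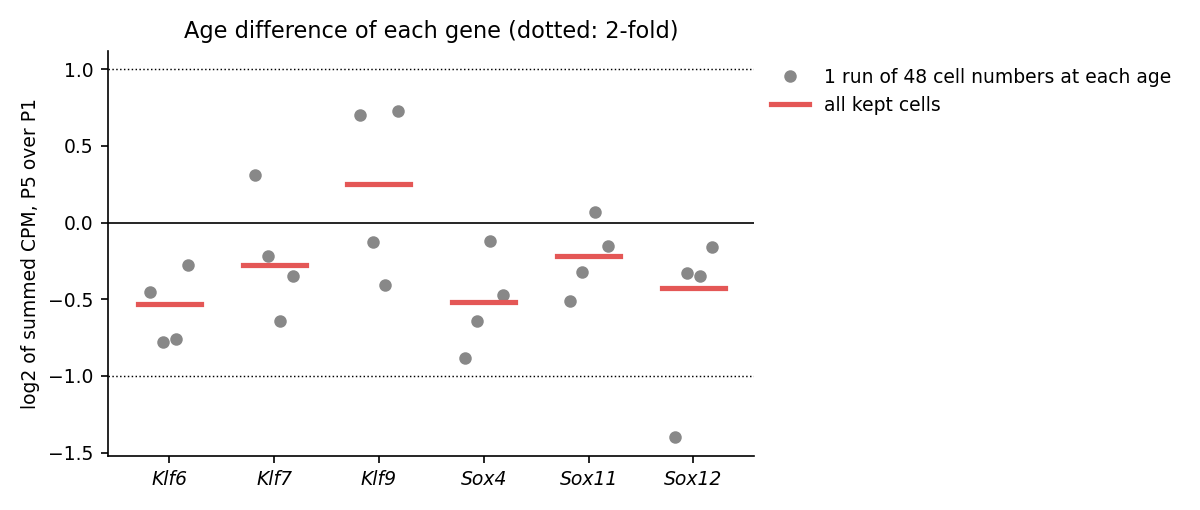
Log2 ratio of summed CPM, P5 over P1 (vertical axis), for the 6 genes above 5 CPM, in all kept cells (line) and in each of 4 runs of 48 cell numbers (points). Runs of the ages are matched by number, although nothing pairs them. *Klf6*, *Sox4* and *Sox12* lie below 0 in all 4 runs, and *Klf7*, *Klf9* and *Sox11* have runs on both sides of 0.

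The clearest differences were between cells with and without *Opn4*, the melanopsin gene, and *Pou4f2*, a POU-domain factor of most ganglion cells that ipRGCs projecting to the suprachiasmatic nucleus are known to lack. At P1, 76 cells had *Opn4* without *Pou4f2*, 57 had both, 27 had *Pou4f2* alone and 30 had neither. At P5 these numbers were 65, 58, 45 and 14. Median fragments per cell lay between 817786 and 1003296 over the 8 classes. The members played no part in forming the classes, and a cell whose *Opn4* or *Pou4f2* transcripts were missed counts as without them. Every animal also carried the Brn3bzDta allele, known for making toxin from the *Pou4f2* locus once Cre has acted. With no control genotype, its effect on the classes with *Pou4f2* was not tested.

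*Sox11* was lowest in cells with *Opn4* and without *Pou4f2*. Its sums at P1 were 570.2 CPM (564.7 to 575.8) in those cells, 896.1 CPM (887.8 to 904.5) in cells with both, 1218 CPM (1205 to 1232) in cells with *Pou4f2* alone and 1325 CPM (1312 to 1338) in cells with neither. At P5 they were 365.9 CPM (360.9 to 370.9), 600.4 CPM (593.6 to 607.2), 1406 CPM (1394 to 1418) and 1243 CPM (1223 to 1263) in the same order. Both classes with *Opn4* were thus below both classes without it, at both ages. Medians over single cells gave the same split at P5, with 223.4 CPM and 399.7 CPM in the classes with *Opn4* and 1196 CPM and 872.5 CPM in those without. Every one of the 59 P5 cells without *Opn4* had a *Sox11* fragment, whereas 52 of the 65 cells with *Opn4* and without *Pou4f2* did (80%, 68.2% to 88.9%).

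Taken as cells with against cells without *Opn4*, a contrast added after these values were seen, *Sox11* was at 705 CPM in the cells with it and 1276 CPM in the 57 without it at P1, a log2 ratio of −0.86. At P5 it was at 475.9 CPM and, in the 59 cells without it, 1366 CPM, a log2 ratio of −1.52, or 2.87-fold lower in cells with *Opn4*. In that P5 contrast 10.9% of 12073 genes were lower by 2-fold or more and 8.51% were higher, and 5.17% of genes had a ratio below that of *Sox11*. At P1, 9.87% of 12198 genes were lower and 11.5% higher by 2-fold or more, and none of the 6 members tested was. *Sox11* was lower with *Opn4* in 4 of 4 runs at each age, with log2 ratios from −1.55 to −0.09 at P1 and from −2.17 to −0.98 at P5. Across cells, its Spearman correlation with *Opn4* was −0.35 at P1 and −0.57 at P5, and with *Eomes*, a T-box factor of ipRGCs, −0.35 and −0.49. The cells of an age are 1 sample, and the CPM values of genes within a cell share a common total. The P5 cells without *Opn4* were also lower in the rest of the ipRGC markers, since the 4 markers other than *Opn4*, which formed the classes, were each higher by 2-fold or more in cells with it, beside none of the 4 at P1. *Eomes* was at 707.7 and 195.2 CPM in the P5 cells with and without *Opn4*, and at 1146 and 811 CPM at P1. The summed immediate early and dissociation genes were at 118.1 CPM in P1 cells with *Opn4* and 216.4 CPM in those without, and at 168.4 and 108.3 CPM at P5. In cells below the median of that list the *Sox11* log2 ratio was −0.53 at P1 and −1.42 at P5.

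*Sox4*, the closest relative of *Sox11* among the 3, had the same order of classes with smaller steps. At P1 it was at 184.99 CPM (181.8 to 188.2) with *Opn4* alone, 261.3 CPM (256.8 to 265.8) with both, 316.4 CPM (309.5 to 323.4) with *Pou4f2* alone and 330 CPM (323.4 to 336.6) with neither. The P5 sums were 139.3, 174.03, 227 and 181.6 CPM. The log2 ratio of cells with over cells without *Opn4* was −0.58 at P1 and −0.47 at P5, neither past 2-fold, with 3 of 4 runs below 0 at P1 and 4 of 4 at P5. *Sox4* was detected in 56 of the 65 P5 cells with *Opn4* alone (86.2%, 75.3% to 93.5%) and in 58 of the 59 cells without *Opn4*. *Sox12* did not keep one order, with a log2 ratio of 0.49 at P1 (44.2 and 31.5 CPM with and without *Opn4*) and −0.54 at P5 (26.01 and 37.7 CPM).

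*Klf6*, a KLF gene that promotes axon growth, was higher where *Opn4* was present. At P1 it was at 285.7 CPM (281.8 to 289.7) with *Opn4* alone, 203.3 CPM (199.4 to 207.3) with both genes, 95.6 CPM (91.8 to 99.5) with *Pou4f2* alone and 164.7 CPM (160.1 to 169.4) with neither. At P5 it was at 225.2 CPM (221.4 to 229.2) with *Opn4* alone and between 102.5 and 106.8 CPM in the 3 other classes. Cells with *Opn4* and without *Pou4f2* therefore stood apart at P5, while at P1 the 2 classes with *Opn4* were above the 2 without. The log2 ratio of cells with over cells without *Opn4* was 0.92 at P1 and 0.71 at P5, above 0 in 4 of 4 runs at each age (0.43 to 1.59 and 0.51 to 1.00). Among cells with *Opn4*, the log2 ratio of those without over those with *Pou4f2* was 0.49 at P1 and 1.08 at P5. The P5 value was the only one past 2-fold among the 6 members tested in either direction and age, where 6.68% of 11845 genes were higher and 9.28% lower by 2-fold or more, and it was under 2-fold without the second run of 48 (0.95) and on mean FPKM (0.85). At P1 the shares were 10.3% higher and 11.3% lower of 12129 genes. *Klf6* detection at P1 was 67.1% (55.4% to 77.5%) with *Opn4* alone, 77.2% (64.2% to 87.3%) with both, 51.9% (31.9% to 71.3%) with *Pou4f2* alone and 46.7% (28.3% to 65.7%) with neither, with overlapping intervals. Between all cells with and all cells without *Opn4* the intervals were apart at P1, at 71.4% (62.95% to 78.9%) and 49.1% (35.6% to 62.7%), and overlapped at P5, at 79.7% (71.5% to 86.4%) and 71.2% (57.9% to 82.2%). For *Sox11* they were apart at P5, at 85.4% (77.9% to 91.1%) with and 100% (93.9% to 100%) without *Opn4*. Each was 1 of 6 members, in a comparison added after the values were seen. Over all genes tested, the interval with *Opn4* lay above that without for 0.943% at P1 and 2.07% at P5, and below it for 0.402% and 3.74%.

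*Klf7* did not follow either gene. Its sums lay between 356.9 and 385.8 CPM over the 4 classes at P1 and between 263.1 and 319.3 CPM at P5, and its log2 ratio of cells with over cells without *Opn4* was −0.08 and −0.01. *Klf9* was at 5.16 and 9.68 CPM with and without *Opn4* at P1 and at 6.56 and 10.5 CPM at P5, but these sums rest on 13 and 23 positive cells, and the P5 log2 ratio of −0.68 became 1.92 when the highest 5% of cells were left out. *Klf4* was below 5 CPM in every contrast.

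**Figure D4:**
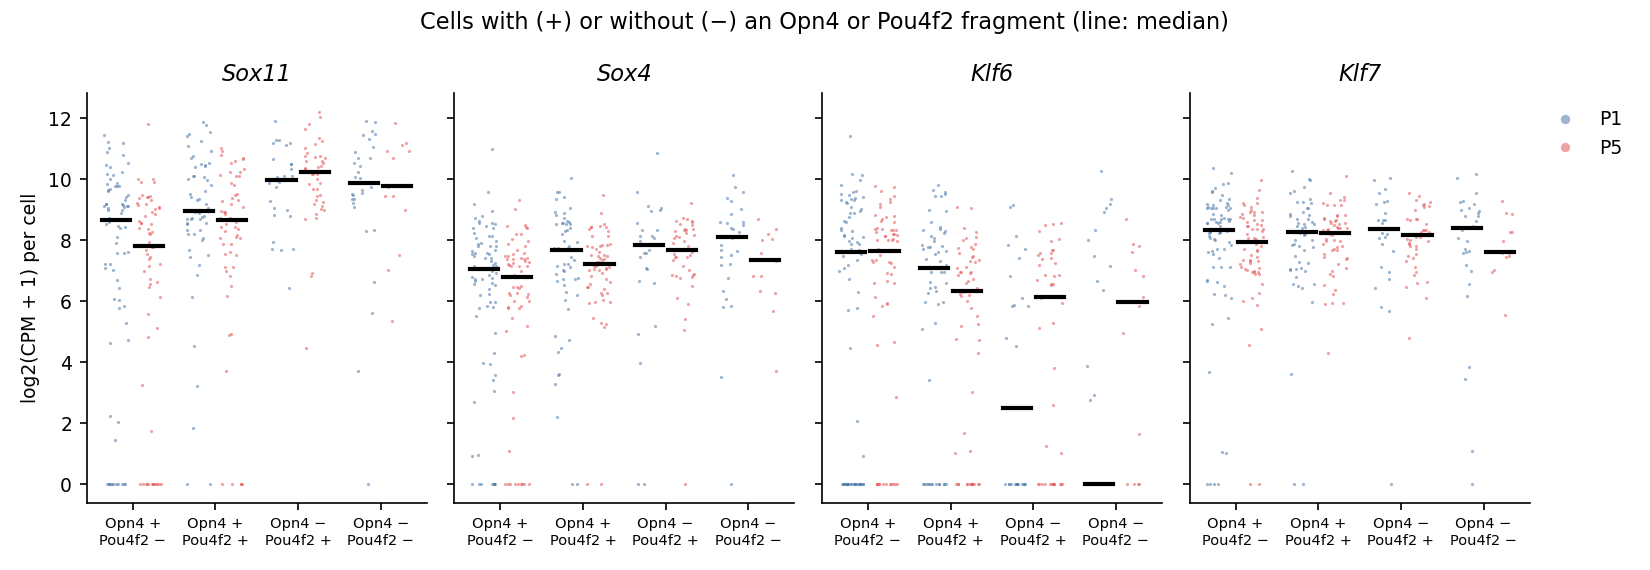
Level of *Sox11*, *Sox4*, *Klf6* and *Klf7* in each cell as log2(CPM + 1) (vertical axis) in the 4 classes of cells with (+) or without (−) an *Opn4* or *Pou4f2* fragment, P1 in blue and P5 in red, with medians as lines. *Sox11* medians are higher in the classes without *Opn4*, *Klf6* medians are highest in the cells with *Opn4* and without *Pou4f2*, and *Klf7* medians are close in all classes.

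The age difference of *Sox11* also went apart by class. In cells with *Opn4* its log2 ratio of P5 over P1 was −0.57, and in cells without it 0.10, while *Klf6* was lower at P5 in both (−0.57 and −0.36), as was *Sox4* (−0.48 and −0.58). In the 4 classes *Sox11* had log2 ratios of −0.64 with *Opn4* alone, −0.58 with both, 0.21 with *Pou4f2* alone and −0.09 with neither. *Sox12* was split in the same way, at −0.76 with *Opn4* and 0.26 without. The difference between these ratios was not tested, since each age is 1 sample.

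**Figure D5:**
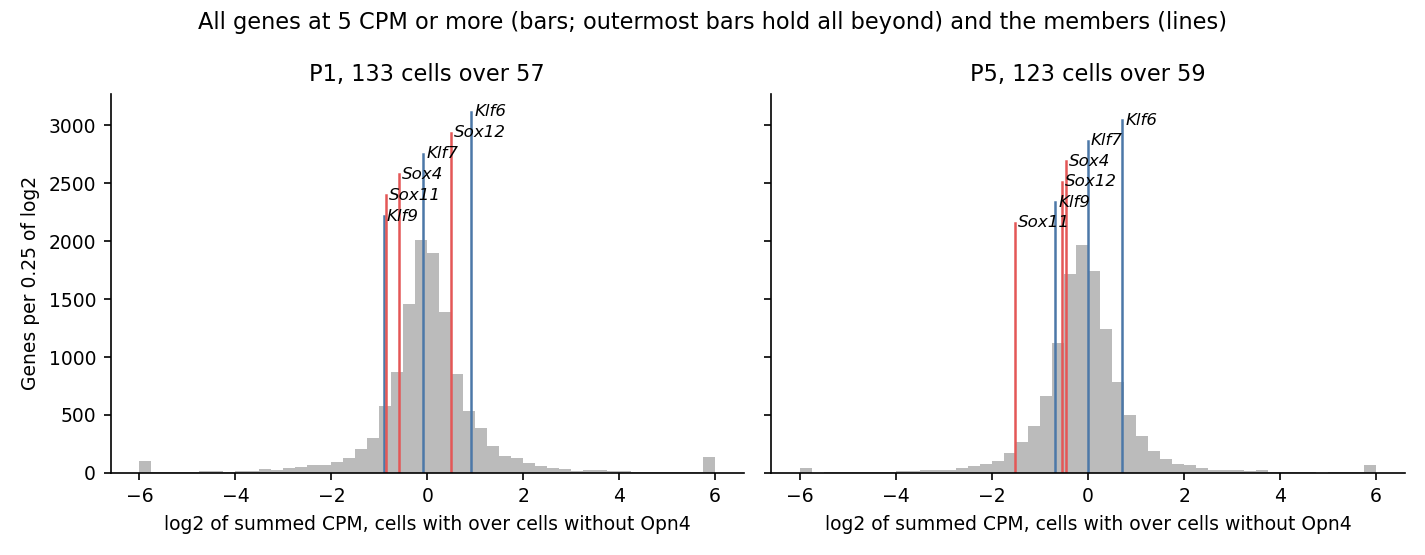
Number of genes (vertical axis) by log2 ratio of summed CPM in cells with over cells without *Opn4* (horizontal axis, bars 0.25 wide, with all values beyond 6 in the outermost bars) for genes of at least 5 CPM at P1 and at P5, with the members as lines whose heights have no meaning. *Sox11* moves from −0.86 at P1 to −1.52 at P5, in the lower flank of all genes, while *Klf6* lies on the upper side at 0.92 and 0.71 and *Klf7* near 0.

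Within an age the members varied largely apart from each other. The highest Spearman correlation of log2(CPM + 1) between 2 members was that of *Sox4* with *Sox11*, 0.25 over the P1 cells and 0.32 over the P5 cells. *Klf6* had weak negative values with *Sox4* (−0.20 and −0.15) and *Sox11* (−0.11 and −0.17), and *Klf6* with *Klf7* gave −0.07 and −0.11. The genes most like a member were those with the highest value of the lower of its 2 within-age correlations among genes detected in at least 25% of cells at each age, 7472 genes for 5 of the members and 7473 for *Klf4* and *Klf9*. For *Sox11* these were *Gm37486* (0.48 and 0.70), *H3f3b*, a gene for the replacement histone H3.3 (0.47 and 0.71), and *Gm6485* (0.38 and 0.59), and the same 3 genes led for *Sox4*, with *H3f3b* at 0.37 and 0.46. *Gm37486* and *Gm6485* match *H3f3b* transcripts at 95% identity or more over 405 and 289 bases, so their values are uncertain and the 3 do not count as separate genes here. For *Klf6* they were *Ndnf* (0.37 and 0.32), *Thsd7b* (0.31 and 0.36) and *Nnat* (0.31 and 0.41). No gene reached 0.3 at both ages for *Klf4*, *Klf7*, *Klf9* or *Sox12*, where *Hnrnpd* for *Klf4* (0.18 and 0.17), *Dpysl3* for *Klf7* (0.18 and 0.22), *Pik3r1* for *Klf9* (0.26 and 0.25) and *Gm8797* for *Sox12* (0.26 and 0.29) were highest.

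The relatives of the members were sparser. Of 13 other KLF genes 8 were above 5 CPM, and 1 passed 2-fold between the ages, *Klf5*, at 6.55 CPM at P1 and 1.77 CPM at P5 (log2 ratio −1.89) in 11 and 8 cells. The next largest differences were *Klf16* (log2 ratio −0.63) and, higher at P5, *Klf8* (0.56) and *Klf10* (0.38), and the median of the 8 was 0.12. *Klf13*, named after its values were seen as the most widely detected, was in 60.5% of P1 cells and 74.7% of P5 cells. Of 16 other SOX genes only *Sox6* was above 5 CPM, at 28.6 and 40.3 CPM (log2 ratio 0.50), and the median detection share over the 16 was 0.263% at P1 and 0.275% at P5. The progenitor factor *Sox2* had a fragment in 1 cell.

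Other regulators of axon growth were described from a list of 26 genes, of which 20 were above 5 CPM. Only *Stat3*, which carries cytokine signals in regeneration, passed 2-fold between the ages, at 57.6 CPM at P1 and 26.5 CPM at P5 (log2 ratio −1.12). *Rhoa*, a GTPase of the cytoskeleton, was higher at P5 without passing 2-fold (0.47), and the next lowest was *Tsc1* (−0.52), which holds mTOR in check. The median of the 20 genes was −0.05. Of 15 ganglion cell differentiation factors 14 were above the limit, and only *Isl2*, at 4.09 and 9.58 CPM, was past 2-fold (log2 ratio 1.23), followed by *Pou4f1* (0.72). The lowest ratios were those of *Pou4f3* (−0.96, in 2 P1 and 4 P5 cells) and *Eomes* (−0.94), and the median was −0.40, close to the −0.36 of the members. Of 8 genes of young neurons linked to SoxC factors, 7 were above the limit and none passed 2-fold, with *Nfasc* (−0.41) and *Dcx* (−0.31) lowest, *Elavl3* highest (0.05) and a median of −0.18.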

How the data were processed

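Smart-seq2 libraries of single cells were sequenced as 75 bp pairs on a NextSeq 500. Per the labels and methods, the authors aligned reads with HISAT2 2.1.0 to GRCm38.p6, handled them with SAMtools 1.9, and ran Cuffquant and then Cuffnorm (Cufflinks 2.2.1) for gene-level values. The deposited fragment table is a library-scaled signal, the deposited FPKM table is on the common scale of Cuffnorm, and the deposited scale is a ratio for each cell. The annotation and the handling of multiply mapping reads are not given in the sources used here.

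Fragments were recovered as the scaled value times the scale, and 90.4% of values above 0 lay no more than 0.01 from a whole number, 1 or higher. A gene was detected from 0.99 recovered fragments. CPM is recovered fragments per 1000000 fragments on genes, summed over cells, and levels are deposited FPKM. Cells with fewer than 1000 detected genes (2 at P1, 10 at P5) were left out, of which 1 had any fragment of a member. Genes with at least 5 CPM in 1 of the groups compared were the background, and 2-fold was the limit for a count. No count model and no p-value was used, because no animal is named and each age is 1 sample. Intervals came from scipy 1.17.1 in Python 3.11.15, transcripts were compared with BLAST 2.17.0, and the ratio and rank steps were tested on simulated data. No doublet caller was run.

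The members and gene lists were chosen with earlier results of these data known. From each list, up to 4 genes above 5 CPM with the largest ratio between the ages in each direction are named, along with up to 3 genes most like each member. A result that this rule would name is not reported here. Genes named outside this rule are *Klf13*, *Sox2*, *Pax6*, *Gad2*, *Glul*, *Sfrp2*, *Irx2*, *Neurod1*, *Nhlh2* and *Eomes*, chosen after their values were seen. Runs of 48 cell numbers follow the numbering in the labels, which do not say what they are. The alternatives were other filters on cells, detection from 5 fragments, thinning, subsets of cells, other averages, FPKM, centring, and leaving out the highest cells or a run.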

Additional observations from a re-analysis of the deposited data

How the results depend on the processing

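No paired analysis was possible because the numbers in the labels only count cells and nothing here was tested. Shares were taken as unmoved inside their exact 95% binomial interval, a log2 ratio with the same sign and within 1.5-fold, and a count within 1.5 times. Of 508 values under 19 settings, 457 were unmoved, and the cause of the other 51 was not tested. The contrast of cells with and without *Opn4*, and leaving runs out of the class contrasts, were added after the data were seen. For *Sox11*, *Sox4* and *Klf6* in that contrast, every value at both ages kept its sign and stayed within 1.5-fold.

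With Y-linked cells only, P1 shares were 53.8% for *Klf6*, 88.5% for *Klf7* and 42.3% for *Sox12*, the age ratios were −1.27 for *Klf4*, 4.76 for *Klf9* and 0.34 for *Sox11*, 1 member passed 2-fold, and *Sox12* with over without *Opn4* at P1 was −0.13. Without haemoglobin fragments, P1 shares were 77.4% for *Klf6* and 98.4% for *Klf7*, and the age ratios were 6.05 for *Klf4* and 0.90 for *Klf9*. Below the median of the immediate early genes, shares were 100% for *Klf7* and 74.4% for *Sox12* at P5 and 2.78% and 7.69% for *Klf9* at P1 and P5, the age ratios were 0.03 for *Klf4* and 0.11 for *Sox11*, and with over without *Opn4* was 0.05 for *Klf7* at P1 and 4.86 for *Klf9* at P5. Thinning to 50000 fragments gave 91.6% for *Klf7*, 86.8% for *Sox4* and 43.2% for *Sox12* at P1 and 45.6% for *Sox12* at P5. With no filter on cells, P5 shares were 93.75% for *Klf7* and 88.5% for *Sox4*.

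On mean FPKM, which was lower at P5 for the median gene, the age ratios were −1.49 for *Klf6*, −0.88 for *Klf7* and −1.56 for *Klf9*. The 3 members past 2-fold were *Klf6*, *Klf9* and *Sox4* (−1.03). At P1 the ratio without over with *Pou4f2* was then 1.36 for *Klf6*, where 1 cell leads, and 1.93 for *Klf9*. With mean CPM over cells it was −0.10 for *Sox12* at P1. Leaving out the highest 5% of cells gave an age ratio of 1.80 for *Klf9*, 1.92 for *Klf9* with over without *Opn4* at P5, and 0.00 for *Sox12* without over with *Pou4f2* at P5.

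Leaving out each run in turn moved the age ratio from −0.44 (without run 3) to 1.88 (without run 4) for *Klf4* and from −0.10 to 0.42 for *Klf9*. With over without *Opn4* ranged from −1.67 to 0.59 for *Klf9* at P1, and at P5 from −1.02 to 0.12 for *Klf9* and −0.10 to 0.13 for *Klf7*. Without over with *Pou4f2* ranged at P1 from 0.00 to 0.09 for *Klf7*, −0.69 to 2.32 for *Klf9* and −0.34 to 0.57 for *Sox12*, and at P5 from 0.48 to 1.74 for *Klf9* and −0.46 to 0.24 for *Sox12*. Under these alternatives the sign changed for the age ratios of *Klf4*, *Klf9* and *Sox11* and for class ratios of *Klf7*, *Klf9* and *Sox12*.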

Other observations

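Hormone response genes were described because *Klf9* is a known target of thyroid hormone and glucocorticoids. Of 13 genes 7 were above 5 CPM. *Nr3c1*, the glucocorticoid receptor, was past 2-fold lower at P5, with 11.4 CPM in 12 P1 cells and 3.69 CPM in 16 P5 cells (log2 ratio −1.63), and the next lowest was *Fkbp5*, a glucocorticoid-induced chaperone (−0.43). *Per1*, a clock gene, and *Tsc22d3*, another glucocorticoid target, had ratios of 0.73 and 0.68, and the median of the 7 was 0.22. The immediate early and dissociation genes summed to 148.7 CPM at P1 and 149.2 CPM at P5. Of 9 above the limit *Fosl2* (log2 ratio 1.84) and *Junb* (1.53) were past 2-fold higher at P5, at 7.03 and 6.33 CPM, beside 4.38% of all genes. *Fosl2* was in only 3 P1 cells and 12 P5 cells, and *Junb* in 5 and 14, so both sums rest on few cells near the CPM limit. *Egr1* (−0.57) and *Dusp1* (−0.54) were lowest.

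Across cells, the Spearman correlation with the immediate early list was highest for *Sox11* at P1 (0.32, and 0.00 at P5), followed by *Klf9* (0.25 at P1 and 0.17 at P5). The other members lay between −0.11 and 0.14 at P1 and between −0.23 and 0.07 at P5.

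Within cells with *Opn4* at P5, *Irx2* (log2 ratio −2.35), *Neurod1* (−1.05) and *Nhlh2* (−1.05) were the differentiation factors past 2-fold lower without *Pou4f2*, beside *Pou4f2* itself, which formed the classes, of 12 tested, where 9.28% of all genes were. They were named after their values were seen. In cells with over cells without *Opn4* at P5, 7 of 14 differentiation factors were past 2-fold lower and 3 higher, beside 10.9% and 8.51% of all genes. The median log2 ratio of that list was −0.91, beside −0.51 for the 6 members and −0.10 for all 12073 genes. The genes of young neurons linked to SoxC factors had a median of 0.66 in the same contrast, with 2 of 7 past 2-fold higher and 0 lower. Other axon growth regulators had 2 of 20 past 2-fold higher, near the share of all genes, and a median of 0.17.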
